A study of Mus musculus with 72 samples.

Results

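The acute-phase response genes were followed as 10 gene symbols taken by name, Saa1, Saa2, Saa3, Orm1, Orm2, Orm3, Lcn2, Hp, Hpx and Crp, of 37108 gene symbols in the 7 count tables. In each table the IVF libraries were compared with the natural ones, with F2 livers and F2 ovaries as the main sites. RNA-Seq of 72 mouse libraries was available. F1 naturals came from CF-1 females mated with SJL/B6 males heterozygous for GFP. F1 IVF mice came from eggs of superovulated CF-1 females fertilized in vitro with sperm of such males, cultured to the blastocyst stage and transferred to recipient females. F2 mice were offspring of 12-week-old natural or IVF males and wild-type CF-1 females. An F2 IVF mouse was therefore itself conceived by mating, and IVF in its name refers to its sire. All mice had chow, and no gene was deleted and no agent was given to the offspring in any group.

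Livers at 12 weeks came from 5 natural and 5 IVF F2 males and from 5 natural and 6 IVF F2 females. Ovaries at 12 weeks came from 4 natural and 5 IVF F2 females, and testes from 5 natural and 7 IVF F2 males. F1 testes came from 4 natural and 6 IVF fetuses at E18.5, from 5 and 5 males at 12 weeks, and from 4 and 6 males at 39 weeks. The libraries are named natural 1, IVF 1 and so on after the numbers in their labels. The labels number the samples of a group and name neither litters nor, for F2 mice, sires, so the p-values measure the spread between these libraries. F2 animals of a group may share a sire. The question for these genes was whether the livers or gonads of IVF mice or of their offspring held more or less acute-phase mRNA than those of naturals.

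The acute-phase response is the change in plasma proteins that follows infection or tissue injury. IL-6, IL-1 and TNF from macrophages and other cells act on hepatocytes through STAT3, NF-kB and C/EBP factors, and the hepatocyte raises the secretion of some proteins and lowers that of others. Serum amyloid A and the orosomucoids are its classic inducible products in the mouse, while CRP, which leads the response in humans, moves little in this species. Haptoglobin and hemopexin bind free hemoglobin and heme, and lipocalin 2 binds the iron carriers of bacteria.

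Saa1, Saa2 and Saa3 lie close together on chromosome 7 of GRCm38, at chr7:46740497-46743181, chr7:46751833-46754313 and chr7:46711998-46719615. Orm1, Orm3 and Orm2 lie side by side on chromosome 4, at chr4:63344556-63348163, chr4:63356069-63359506 and chr4:63362449-63365877. Hpx is at chr7:105591611-105600116, Lcn2 at chr2:32384637-32387739, Hp at chr8:109575128-109579172 and Crp at chr1:172698056-172699966. Promoter sequences of RefSeq (GRCm38.p6) were matched for 8 of the 10 members, and Orm1 and Hp were not matched. The stretches below run 5′ to 3′ on the strand of the gene, from 250 to 91 bases before the RefSeq start, and are shown because the members were measured as families of near copies and because a C/EBP motif (TTGCNNAA, either strand, given in capitals) was found in them. They lie at chr7:46743071-46743230 (minus strand) for Saa1, chr7:46751583-46751742 (plus) for Saa2, chr7:46715767-46715926 (minus) for Saa3, chr4:63362199-63362358 (plus) for Orm2, chr4:63355908-63356067 (plus) for Orm3 and chr7:105600207-105600366 (minus) for Hpx. The gene spans of Saa1 and Saa3 begin further upstream than the start used here, so these 2 stretches overlap the spans.
Saa1: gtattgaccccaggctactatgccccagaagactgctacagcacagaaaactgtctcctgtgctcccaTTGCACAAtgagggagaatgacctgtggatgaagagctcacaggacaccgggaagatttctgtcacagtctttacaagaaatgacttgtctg
Saa2: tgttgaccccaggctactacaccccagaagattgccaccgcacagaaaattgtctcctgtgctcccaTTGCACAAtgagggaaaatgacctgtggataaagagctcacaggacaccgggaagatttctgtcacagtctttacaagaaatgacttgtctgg
Saa3: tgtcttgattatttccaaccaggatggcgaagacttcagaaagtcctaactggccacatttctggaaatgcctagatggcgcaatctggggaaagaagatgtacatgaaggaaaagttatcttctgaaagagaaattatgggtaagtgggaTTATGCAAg
Orm2: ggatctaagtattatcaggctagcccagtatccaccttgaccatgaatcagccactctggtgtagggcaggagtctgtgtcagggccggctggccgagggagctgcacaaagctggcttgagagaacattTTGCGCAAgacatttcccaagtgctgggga
Orm3: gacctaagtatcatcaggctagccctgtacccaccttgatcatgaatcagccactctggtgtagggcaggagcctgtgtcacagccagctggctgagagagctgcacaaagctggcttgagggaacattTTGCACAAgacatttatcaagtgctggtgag
Hpx: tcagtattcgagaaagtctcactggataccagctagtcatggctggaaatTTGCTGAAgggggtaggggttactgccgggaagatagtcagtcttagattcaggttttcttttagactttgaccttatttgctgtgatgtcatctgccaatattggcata
Over the 250 bases before the start, the Saa1 and Saa2 windows were identical at 94.8% of aligned positions, and those of Orm2 and Orm3 at 85.9%. Saa3 shared 50.2% with Saa1 and 50.6% with Saa2. The C/EBP motif was in 7 of the 8 member windows, all but that of Crp, and in 9.56% of 32851 windows of this length over all promoters of the table. It began 182 bases before the start in Saa1, 183 in Saa2, 99 in Saa3 (as TTATGCAA, the motif on the other strand), 120 in Orm2, 121 in Orm3, 216 in Lcn2 and 200 in Hpx. The Orm2 match, TTGCGCAA, reads the same on both strands. The STAT motif TTCNNNGAA was in 0 of the 8 windows and in 7.02% of all, the NF-kB motif in 0 and 1.41%, and the HNF1 core GTTAAT in 0 and 6.43%. A match is a description of these letters, and the pairs of near copies count as more than 1 window.

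Total counts ranged from 543745 to 90441392 over the 72 libraries. In the male livers they were 10391074 to 44069283 for naturals and 543745 to 12624673 for IVF, and IVF 2 and IVF 3 had 2137355 and 543745. In the female livers they were 3947645 to 34149676 for naturals and 13815244 to 90441392 for IVF. All 10 markers of hepatocytes were above 0 in every liver. Ddx3y, from the Y chromosome, was present in every male liver and 0 in every female one. Male IVF 3 held 18.9 CPM of Xist, the RNA of the inactive X chromosome. The other males had 0.378 to 3.60 CPM and females 178 to 443 CPM. At the depth of male IVF 3, 543745 counts, its value rests on few counts. Values are CPM, the counts scaled to a common library size by TMM. The TMM factors did not overlap between the groups in either liver table. In males they were 1.07 to 1.17 in naturals and 0.777 to 1.01 in IVF, and in females 0.869 to 0.972 and 1.03 to 1.14. Library make-up thus differed with the group, and its part in the liver values cannot be told apart from the IVF effect. Fold changes are log2 of IVF over natural from edgeR's quasi-likelihood fit with its standard error (SE). A gene was called with a Benjamini-Hochberg adjusted p under 0.05 and more than 1.5-fold, which is 0.585 on the log2 scale. In whole tissue, fewer cells of a type and less RNA per cell cannot be told apart.

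Per kilobase of transcript, the plasma carriers were the most abundant members in the natural livers. In male naturals Hp had a median of 2790 CPM per kb (2627 to 4834), Hpx 2238 (2103 to 3472), Orm1 953 (800 to 1103) and Crp 135 (131 to 153). The ranges of Hp and Hpx overlapped, while Orm1 and Crp each stood apart from their neighbours above. Saa1 followed with 36.5 CPM per kb (16.4 to 147), Saa2 with 21.1 (17.7 to 92.7), Orm2 with 6.12, Saa3 with 3.74, Lcn2 with 2.27 and Orm3 with 1.52. The ranges of Saa1 and Saa2 overlapped, that of Orm2 lay below both, and from Orm2 on each range overlapped the next. In female naturals the order was Hp 2062, Hpx 1321, Orm1 1036, Crp 195, Saa2 136, Saa1 62.4, Orm2 52.4, Lcn2 16.4, Orm3 12.3 and Saa3 3.32 CPM per kb. Here the ranges of Hp, Hpx and Orm1 overlapped, while Saa2 ran from 8.34 to 151 and Saa1 from 3.05 to 83.9. The length was the median over a gene's annotated transcripts, 1527.5 bases for Saa1 and 629 for Saa2. Before division by length, the female natural medians were 95.3 CPM for Saa1 and 85.6 CPM for Saa2. The order of these near copies thus rests on the length used. The plot of levels by tissue sets these beside the gonads, where Lcn2 was the only member higher in adult testes than in either liver.

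**Figure D1:**
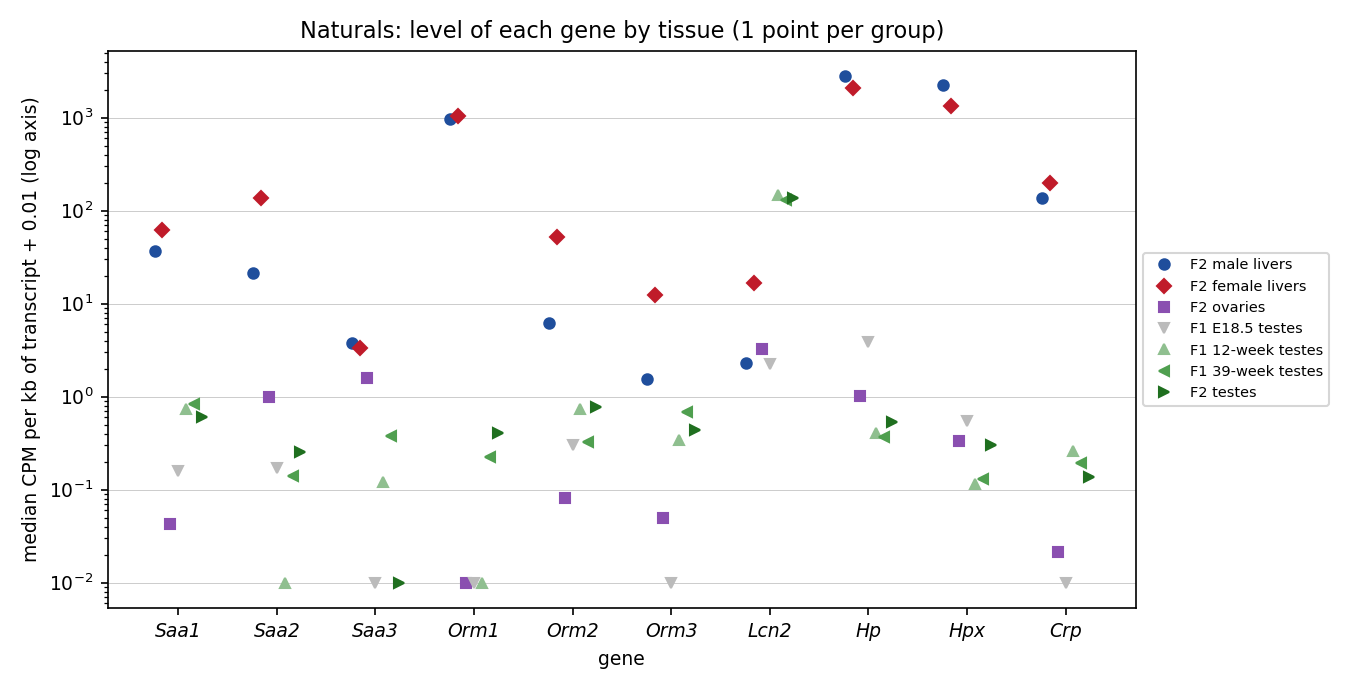
Median CPM per kilobase of transcript, plus 0.01, on a log axis, for each member in the natural libraries of each of the 7 tables, with 1 point per group. Hp reaches 2790 in male and 2062 in female livers, and Lcn2 is the member with the highest level in the testes from 12 weeks on.

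In F2 male livers, 3 of the 10 members were called higher in IVF (Saa3, Orm2 and Orm3) and 0 lower. Of the 11973 genes tested 31.1% were called, 13.9% as higher and 17.2% as lower, so 3 of 10 is near the share of all genes. The median log2 fold change of the members was 2.93, against -0.01 over all genes. A single animal, IVF 4, was the highest of the 10 male livers for 10 of 10 members, and it gave the members 3.40% of all its counts, against 0.200% to 0.425% in the other IVF livers and 0.582% to 1.04% in naturals. Leaving out a natural also ended calls, with 1 left without natural 1 and 0 without natural 2, 3, 4 or 5. Without IVF 4, 0 members were called higher, Hp and Hpx were called lower (17.2% of all genes were called lower in that fit), and the median of the members was 0.15.

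**Figure D2:**
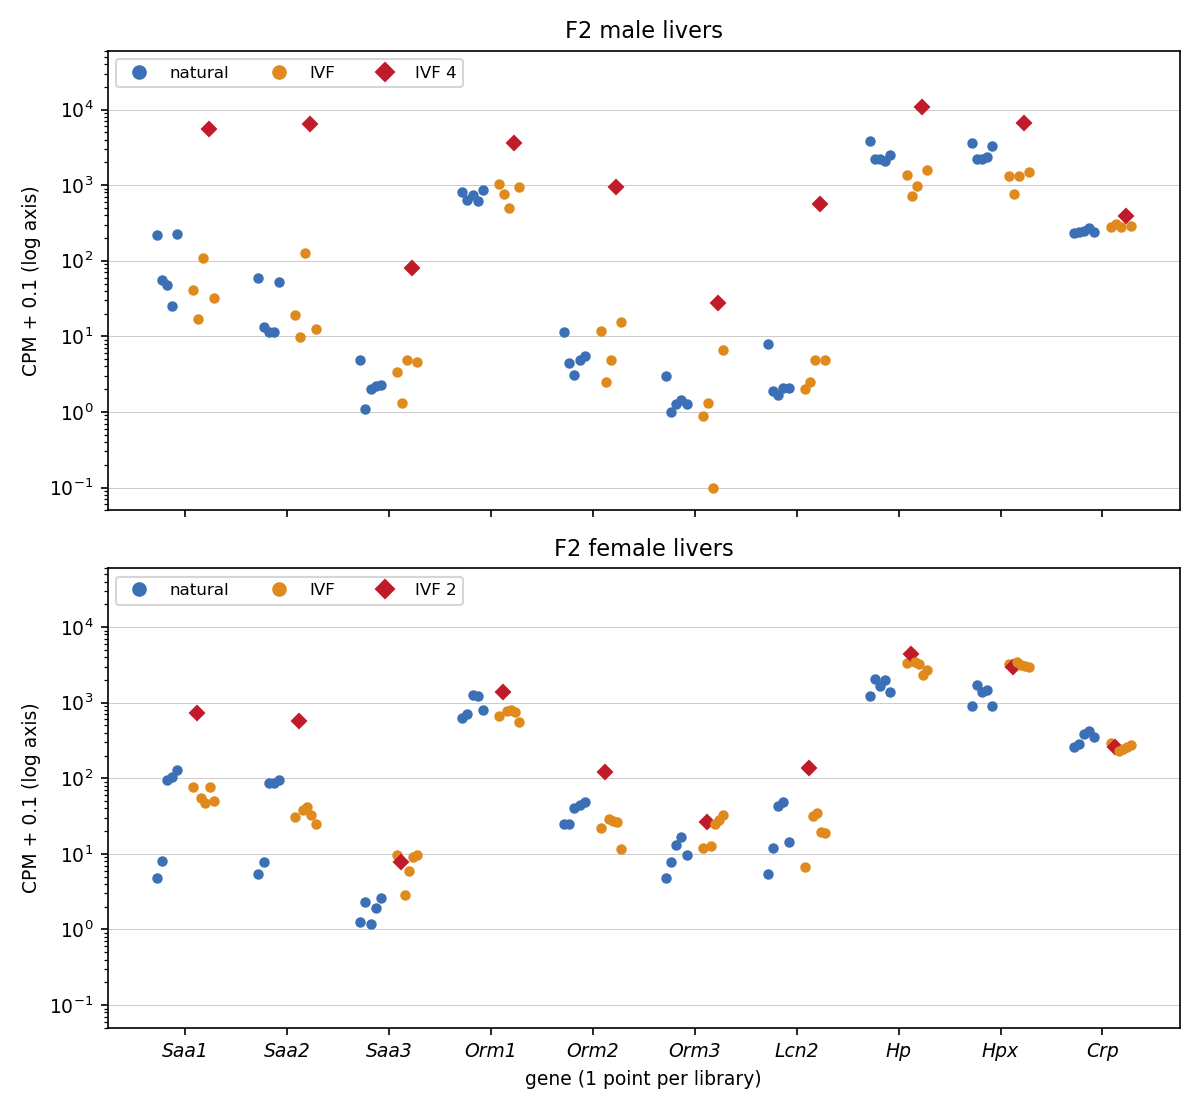
CPM plus 0.1 of each member in every F2 liver library on a log axis, males above and females below, naturals in blue and IVF in orange, with male IVF 4 and female IVF 2 as red diamonds. In males IVF 4 lies above all others for each gene, and in females Saa3, Hp and Hpx of the 6 IVF libraries lie above all 5 naturals.

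Among the serum amyloid A genes, Saa1 encodes the main form that travels on HDL. Its level in male naturals 1 to 5 was 219, 55.8, 48.2, 25.0 and 224 CPM, and in IVF 1 to 5 it was 40.5, 16.8, 109, 5465 and 32.1 CPM. IVF 4 held 55280 counts, and the other IVF livers were within or below the naturals. The log2 fold change was 3.33 (SE 1.80, adjusted p = 0.192) and -1.42 without IVF 4 (adjusted p = 0.253).

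Saa2, its near copy, was 58.3, 13.3, 11.2, 11.1 and 51.7 CPM in naturals and 19.2, 9.60, 128, 6401 and 12.3 CPM in IVF. IVF 4 was again far above the rest, and IVF 3, at 54 counts, was the only other IVF liver above the naturals. The log2 fold change was 5.52 (SE 2.16, adjusted p = 0.0814), and -0.02 without IVF 4 (adjusted p = 0.991). Saa3, the form made largely outside the hepatocyte, by macrophages and fat among others, was 4.79, 1.00, 1.88, 2.08 and 2.16 CPM in naturals and 3.31, 1.20, 4.73, 79.3 and 4.51 CPM in IVF. Its call (log2 3.24, SE 1.08, adjusted p = 0.0453) rested on IVF 4, without which the value was 0.56 (adjusted p = 0.401). The 10 macrophage markers summed to 263 CPM in IVF 4, against 142 to 197 in naturals and 142 to 178 in the other IVF livers. Of these 10, 5 were called higher in IVF and 1 lower (median log2 fold change 0.51), and of 5 markers of Kupffer cells, the resident macrophages, 2 were higher and 0 lower. The part of macrophages in the Saa3 value was not tested.

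The counts of Saa1 and Saa2 need care, because 31.1% of the 50-base stretches of one are found in the other, so reads could be split between them. As counted, Saa2 per Saa1 was 0.231 to 0.445 in male naturals and 0.742 to 1.13 in female naturals. It was 1.17 in male IVF 4 and, at 46 and 54 counts, in IVF 3. In female IVF livers the ratio was 0.404 to 0.906. Saa1 and Saa3 shared 0.357% of such stretches.

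The orosomucoids are the acid glycoproteins that carry lipophilic ligands in plasma. Orm1, the most abundant of them, was 812, 631, 738, 619.7 and 855 CPM in male naturals and 1028, 763, 497, 3591 and 939.7 CPM in IVF. Of the IVF livers 3 were above the highest natural and 1 below the lowest. The log2 fold change was 0.94 (SE 0.46, adjusted p = 0.137), and 0.18 without IVF 4.

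Orm2 was 11.2, 4.40, 3.00, 4.74 and 5.32 CPM in naturals and 11.8, 2.40, 4.73, 955 and 15.3 CPM in IVF. IVF 4 stood far above the next liver, while IVF 1 and IVF 5 were just above natural 1. Its call (log2 5.20, SE 1.72, adjusted p = 0.0476) ended without IVF 4 (0.89, adjusted p = 0.124). Orm3 was 2.86, 0.901, 1.18, 1.34 and 1.16 CPM in naturals and 0.787, 1.20, 0, 27.2 and 6.52 CPM in IVF, and its call (log2 2.61, SE 0.85, adjusted p = 0.0362) also ended (0.97, adjusted p = 0.247). Here IVF 4 and IVF 5 were above the naturals, and IVF 1 and IVF 3 below them. The make-up of the family as counted also set IVF 4 apart, since Orm1 was 78.5% of the summed Orm counts there and 97.7% to 99.5% in the other male livers. Orm1 and Orm2 share 20.4% of their 50-base stretches.

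Lcn2, a siderophore-binding protein of neutrophils and induced hepatocytes, was 7.77, 1.80, 1.59, 1.97 and 2.00 CPM in male naturals and 1.89, 2.40, 4.73, 565 and 4.76 CPM in IVF. IVF 4 held 5717 counts, and IVF 2 and IVF 3 held 4 and 2. The log2 fold change of 5.40 (SE 1.84) had an adjusted p of 0.0525, and without IVF 4 it was 0.12 (adjusted p = 0.899). The summed level of the 11 neutrophil markers was 8.70 CPM in IVF 4, against 1.33 to 2.25 in naturals and 1.89 to 4.73 in the other IVF livers. Between 3 and 10 of these markers were at 0 in each IVF liver. The part of neutrophils in the Lcn2 value was not tested.

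Hp and Hpx, which clear hemoglobin and heme, went the other way in most IVF males. Hp was 3872, 2231, 2235, 2104 and 2524 CPM in naturals and 1370, 710.0, 971, 10933 and 1589 CPM in IVF. Hpx was 3630, 2207, 2199, 2340 and 3268 CPM in naturals and 1321, 757, 1312, 6554 and 1493 CPM in IVF. For both genes 4 of 5 IVF livers were below every natural, and IVF 4 was above every natural. With all libraries the log2 fold change was 0.30 (SE 0.75, adjusted p = 0.798) for Hp and -0.22 (SE 0.54, adjusted p = 0.788) for Hpx. Without IVF 4 both passed the test, at -1.13 (adjusted p = 0.00305) and -1.13 (adjusted p = 0.00170).

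Crp, a pentraxin that binds phosphocholine, was 236, 239, 247, 275 and 243 CPM in naturals and 280.2, 303, 279, 395 and 288 CPM in IVF. It was the only member with every IVF male liver above every natural, an order that 9.87% of all genes showed. The difference was 0.36 on the log2 scale (SE 0.15, adjusted p = 0.0745).

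**Figure D3:**
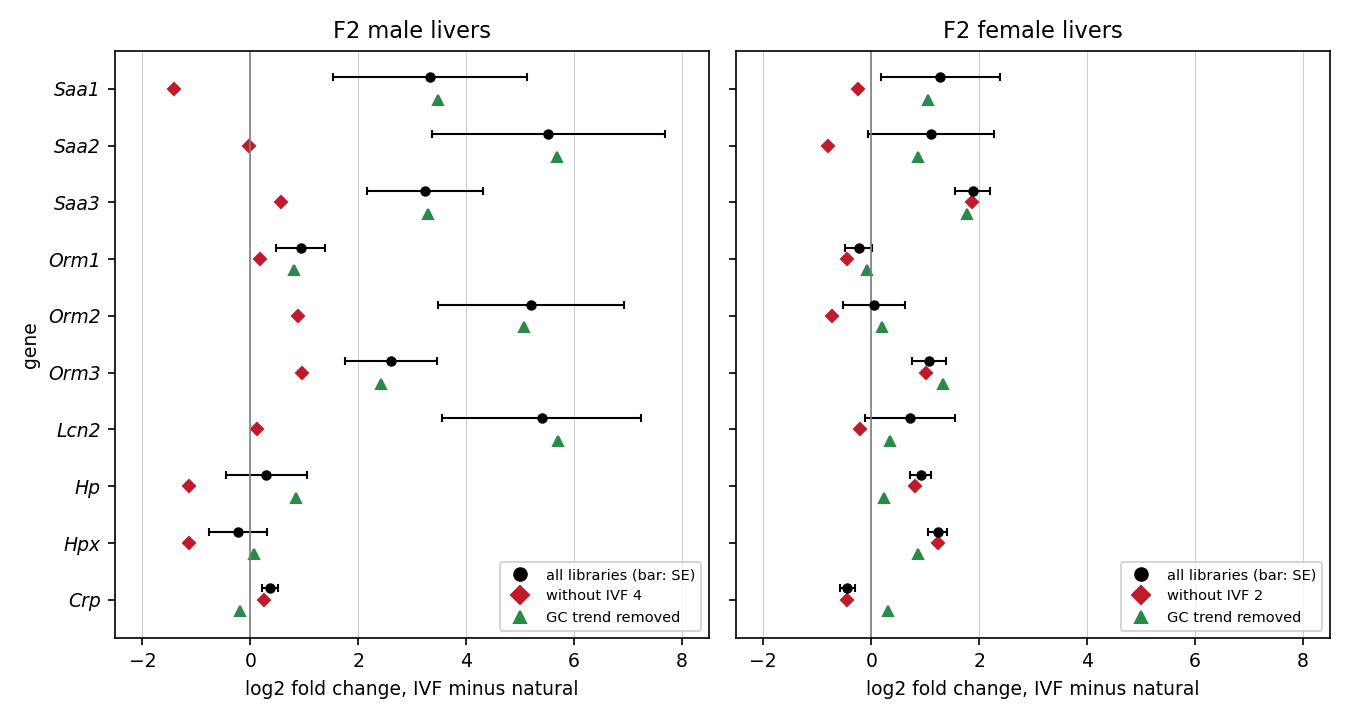
Log2 fold change of IVF over natural with its SE for each member in F2 male and F2 female livers, with all libraries (black), without male IVF 4 or female IVF 2 (red, no SE drawn) and with the GC trend removed (green, no SE drawn). In males Hp and Hpx lie near 0 with all libraries and at -1.13 without IVF 4, and in females Saa3, Orm3, Hp and Hpx are above 0 in each setting.

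In F2 female livers, Saa3, Orm3, Hp and Hpx were called higher in IVF and 0 members were called lower. Of 12525 genes tested 39.4% were called, 21.6% as higher and 17.8% as lower. The median log2 fold change of the members was 0.99, against -0.01 over all genes. The summed counts of the members took 0.267% to 0.498% of the total in naturals and 0.687% to 1.18% in IVF, and this sum was carried by Hp and Hpx. These 2 took 0.186% to 0.365% in naturals and 0.565% to 0.820% in IVF, while the other 8 members took 0.0813% to 0.1805% and 0.102% to 0.365%, which overlapped. The library IVF 2 was the highest of the 11 for 6 of 10 members, and natural 1, the shallowest, was the lowest for 6 of 10. Leaving out each of the 11 libraries in turn, these 4 genes stayed called. Without IVF 2 Orm2 was also called lower, and the median of the members was -0.22.

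Hpx had the most certain difference of the members. It was 903, 1705, 1381, 1484 and 911 CPM in the naturals and 3215, 2928, 3502, 3131, 3094 and 2933 CPM in IVF 1 to 6. The 6 IVF livers lay close together, all above every natural. The log2 fold change was 1.23 (SE 0.18, adjusted p = 6.09e-05), and 1.25 without IVF 2 (adjusted p = 1.01e-04).

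Hp was 1234, 2051, 1652, 1971 and 1370 CPM in naturals, and in IVF its lowest, median and highest values were 2361, 3308 and 4350 CPM. The groups again did not overlap, and the log2 fold change was 0.92 (SE 0.19, adjusted p = 8.84e-04). This call ended with the trend on GC content described further on removed, at 0.24 (adjusted p = 0.412). Saa3 was 1.17, 2.22, 1.08, 1.84 and 2.53 CPM in naturals and 9.60, 7.67, 2.74, 5.76, 8.92 and 9.54 CPM in IVF. IVF 3 was just above the highest natural and the other 5 were well above it, for a log2 fold change of 1.88 (SE 0.33, adjusted p = 2.66e-04). Macrophage markers summed to 94.8 to 259 CPM in the female naturals and 165 to 299.5 CPM in IVF, with 3 of 10 called higher and 1 lower, while the Kupffer cell markers had a median of -0.70 with 1 of 5 called lower. Their part in the Saa3 value was not tested. Saa3, Hp and Hpx had every IVF liver above every natural, as 17.7% of all genes did.

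Orm3 was 4.66, 7.67, 13.0, 16.6 and 9.53 CPM in naturals and 11.7, 26.4, 12.5, 24.9, 28.1 and 32.2 CPM in IVF. Of the 6 IVF livers 4 were above the highest natural, and the log2 fold change was 1.07 (SE 0.32, adjusted p = 0.0131). Its neighbours did not share it. Orm1 was 626, 705, 1247, 1241 and 803 CPM in naturals against 562, 756 and 1373 CPM as the lowest, median and highest IVF values (log2 -0.23, SE 0.24, adjusted p = 0.445). Orm2 was 25.1, 24.8, 40.6, 43.6 and 48.0 CPM in naturals against 11.6, 26.7 and 121 CPM (log2 0.06, SE 0.57, adjusted p = 0.944). The highest value of both was that of IVF 2, and without it Orm2 was lower in IVF, at -0.72 (adjusted p = 0.0313).

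Saa1 in female naturals was 4.66, 7.91, 95.3, 105 and 128 CPM, and in IVF it was 76.3, 726, 54.6, 46.4, 75.8 and 49.9 CPM. Saa2 was 5.25, 7.6, 85.6, 86.0 and 95 CPM in naturals and 30.8, 581, 37.9, 42.1, 32.9 and 24.6 CPM in IVF. For both genes naturals 1 and 2 were the lowest of all 11 livers, IVF 2 was the highest, and the other 5 IVF livers lay between the low and the high naturals. The log2 fold changes were 1.28 (SE 1.10, adjusted p = 0.367) and 1.11 (SE 1.16, adjusted p = 0.458), and -0.24 and -0.80 without IVF 2.

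Lcn2 was 5.25, 11.7, 42.8, 49.1 and 14.3 CPM in naturals, with 6.55, 25.6 and 139 CPM as the lowest, median and highest IVF values. The highest was IVF 2 and the groups overlapped (log2 0.72, SE 0.84, adjusted p = 0.508). Neutrophil markers summed to 1.84 to 4.66 CPM in the female naturals and 1.47 to 4.50 CPM in IVF, so they did not separate the groups. Crp was 263, 281, 382, 424 and 350.4 CPM in naturals and 231, 262 and 291 CPM as the lowest, median and highest IVF values. In 4 of 6 IVF livers it was below the lowest natural, and its difference of -0.44 (SE 0.14, adjusted p = 0.0168) was under the fold limit.

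The GC content of a gene moved with its fold change in both liver tables, in opposite directions. Across genes, which are not independent replicates and share the libraries, Spearman's rho of GC content with the log2 fold change was -0.62 in males and 0.72 in females. Hp, at 56.2% GC, was in the percentile 81.7 of tested genes, Hpx at 66.0, Orm3 at 35.7 and Crp at 5.12. With the trend on GC removed from each library, 0 members were called in males, where 10.1% of genes were called higher. Saa3, Orm2 and Orm3 kept their sizes there, at 3.30, 5.08 and 2.43, with adjusted p of 0.0595, 0.0710 and 0.0741, and Crp turned to -0.19 (adjusted p = 0.421). Without IVF 4 and without the GC trend, Hpx was still lower in males (-0.74, adjusted p = 0.0135) and Hp was not called (-0.45, adjusted p = 0.102). In females 3 members stayed called, where 8.45% of genes were called higher. These were Saa3 (1.78, adjusted p = 0.00116), Orm3 (1.32, adjusted p = 0.00951) and Hpx (0.87, adjusted p = 0.00126). Hp was no longer called, and Crp turned to 0.31 (adjusted p = 0.128).

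The IVF effect was then compared between the sexes in 1 fit of all 21 livers. The effect differed for 4 of 10 members, Orm2, Lcn2, Hpx and Crp, while 52.9% of all genes were called by that test. The female minus male difference on the log2 scale was -5.14 for Orm2 (SE 1.60, adjusted p = 0.0113) and -4.67 for Lcn2 (SE 1.81, adjusted p = 0.0371). It was 1.46 for Hpx (SE 0.57, adjusted p = 0.0373) and -0.79 for Crp (SE 0.20, adjusted p = 0.00165). Orm2 and Lcn2 were those in which male IVF 4 was highest by the widest margins. Without that library and without IVF 2 and IVF 3, the shallowest males, Orm2 was -1.19 (adjusted p = 0.311) and Lcn2 was 0.62 (adjusted p = 0.767). Leaving out 1 liver at a time, Lcn2 lost its call in 11 of 21 fits and turned positive without male IVF 4, Hpx lost its call in 9, and Crp kept it. In the fit without male IVF 2, 3 and 4, where 45.9% of genes were called, Hp (1.72, adjusted p = 2.13e-04), Hpx (2.18, adjusted p = 7.38e-06) and Crp (-0.65, adjusted p = 0.0119) were called. With the GC trend removed from all 21 livers, Orm2 (-4.88, adjusted p = 0.0205) and Lcn2 (-5.37, adjusted p = 0.0263) stayed called, while Hpx was 0.82 (adjusted p = 0.233) and Crp turned to 0.52 (adjusted p = 0.0605).

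Among naturals, Orm3 was higher in female livers than in male ones by 2.88 on the log2 scale (SE 0.69, adjusted p = 0.00225), and Hpx was lower, at -1.01 (SE 0.41, adjusted p = 0.0498). Of all genes 42.2% were called in this comparison, and 2 of 10 members were. Every female natural had more Orm3 and less Hpx than every male one. The call of Hpx was lost in 16 of 21 fits that left out 1 liver, and without male IVF 4 the count of called members was 4. Orm2 and Lcn2 had differences as large, 2.76 and 3.12, with adjusted p of 0.0646 and 0.0741. Crp was higher by 0.54 (adjusted p = 0.00332), under the fold limit. With the GC trend removed Orm3 stayed called (2.61, adjusted p = 0.00752). Hpx was then -0.65 (adjusted p = 0.199) and Crp -0.17 (adjusted p = 0.419), and neither was called. The sexes are in separate tables, and the labels do not say whether their libraries were prepared together.

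**Figure D4:**
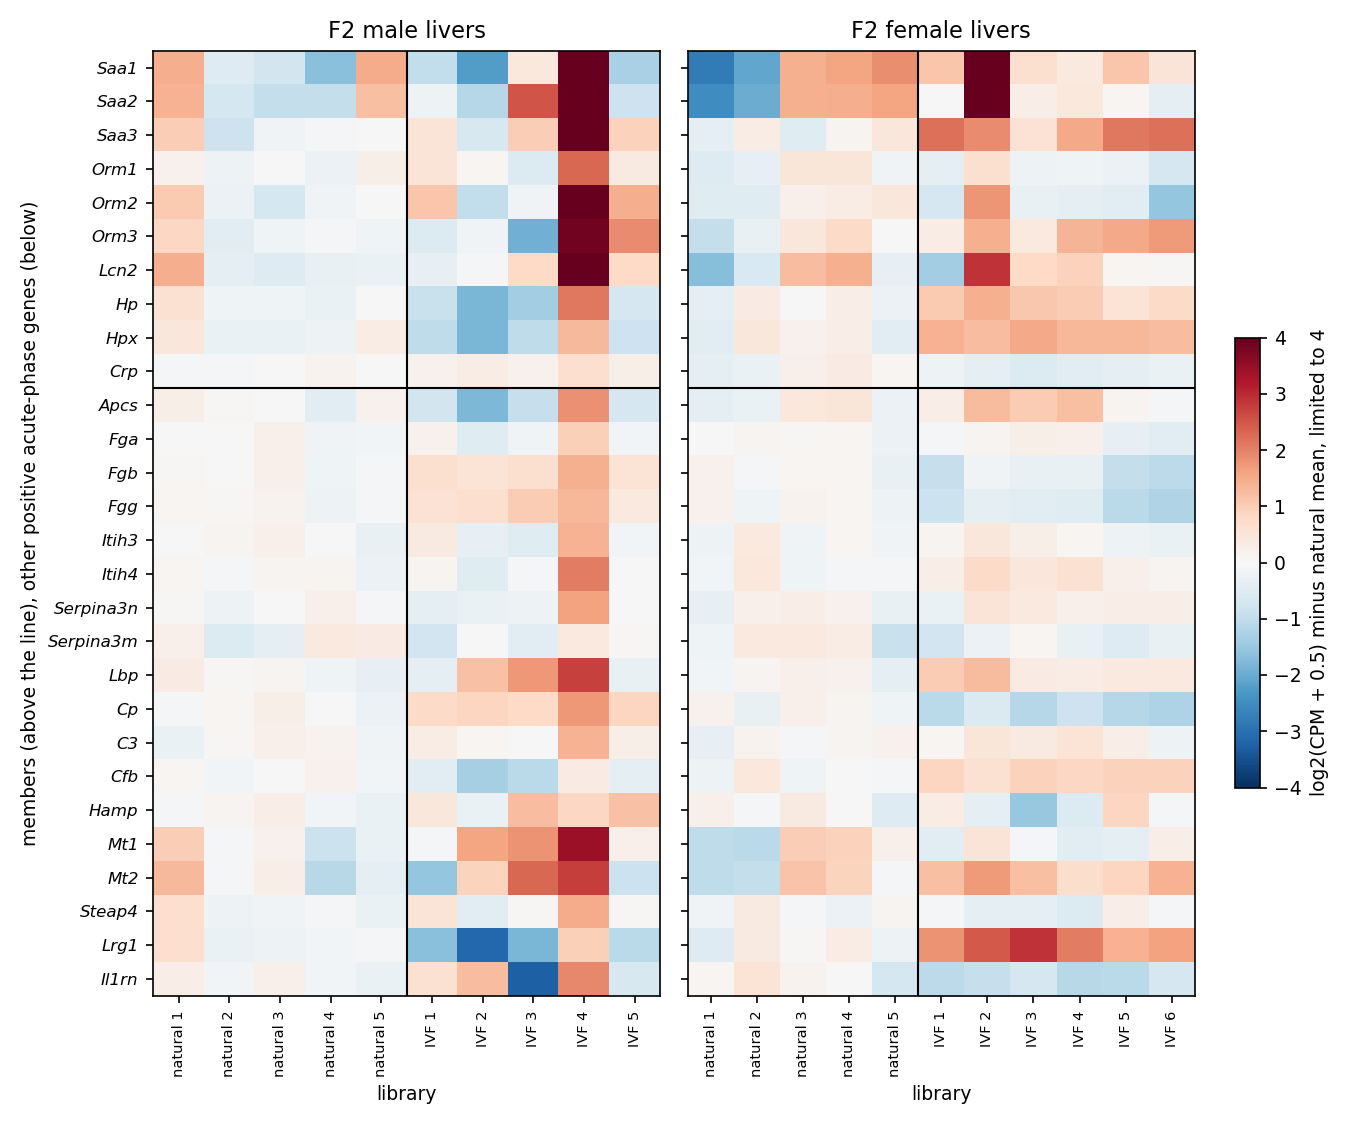
Heat map of the members and of the other acute-phase genes in the 21 F2 livers, as log2 of CPM plus 0.5, minus the gene's mean over the naturals of the same sex, with colours limited to 4 on either side. Male IVF 4 is the highest male liver for 10 of 10 members and 17 of 18 other genes, while among females IVF 2 is the highest for 6 of 10 members.

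Some pairs of members varied together from liver to liver and others did not. The correlations below are Pearson's r of log2 CPM over the 21 F2 livers, each gene centred within its 4 groups, with the value over the 20 livers without male IVF 4 after it. The livers share library depth and base composition, and each r is a description. Saa1 and Saa2 were the closest pair (0.98 and 0.96), followed by Hp and Hpx (0.95 and 0.79) and by Orm2 and Hp (0.94 and 0.75). Other pairs rested on male IVF 4. Saa3 and Orm1 had an r of 0.63 that was -0.02 without it, Saa2 and Orm3 had 0.43 and -0.10, Saa1 and Orm3 had 0.49 and 0.06, Saa3 and Lcn2 had 0.72 and 0.15, and Crp and Hp had 0.47 and 0.03. Beyond the members, the genes most like Lcn2 were Serpina3n, a protease inhibitor of the acute phase (0.92 and 0.73), and Serpina10 (0.92 and 0.73). Orm1 was most like Orm2 (0.90 and 0.72) and Apcs, the serum amyloid P component (0.88 and 0.68). Orm2 also followed Apcs (0.91 and 0.72) and Serping1, the C1 inhibitor (0.90 and 0.57). Hpx was followed by Lrg1, a secreted glycoprotein of the acute phase (0.91 and 0.76), and Saa1 by Gm15638 (0.84 and 0.81). Crp and Orm3 had other companions, Rnase4 for Crp (0.84 and 0.78), with Prob1 and Zfand6 at 0.78, and Aggf1 for Orm3 (0.89 and 0.81), with Gm10499 and Fam20c at 0.89 and 0.88.

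Of 18 further plasma and stress genes that rise in the response, 4 were called higher in male IVF livers and 0 lower, with a median log2 fold change of 0.62, where 13.9% of all genes were called higher and 17.2% lower. They were Cp, a copper carrier (1.09, adjusted p = 8.76e-04), the fibrinogen chains Fgg (0.87, adjusted p = 0.00283) and Fgb (0.83, adjusted p = 0.00399), and Hamp, the hormone of iron balance (0.80, adjusted p = 0.0162). Male IVF 4 was the highest liver for 17 of the 18, as for all members. Without it 4 were called higher and 3 lower, and the median was 0.14. In female IVF livers 3 of the 18 were called higher and 4 lower, near the 21.6% and 17.8% of all genes, with a median of -0.04. Lrg1 (2.04, adjusted p = 5.15e-05) and Cfb of the complement pathway (0.77, adjusted p = 3.40e-04) were higher, while Cp (-1.06, adjusted p = 9.97e-05) and Fgg (-0.78) were lower. Of 8 genes that fall in the response, 2 were higher in male IVF livers, Serpina6 (1.28) and Alb (0.60), and 2 were lower in female ones, Alb (-0.89) and Ttr (-0.78). With the GC trend removed, 3 of the 18 were called higher in males, and 1 was higher and 1 lower in females. Of the genes named here, Hamp (0.84, adjusted p = 0.0238) and Serpina6 (1.49, adjusted p = 2.64e-04) kept their calls in males, while Cp, Fgg, Fgb and Alb did not. In females Lrg1 (0.91, adjusted p = 0.0526), Cp, Fgg and Ttr did not pass the test in that setting, and Cfb (0.49, adjusted p = 0.00829) and Alb (-0.57, adjusted p = 0.00969) were under the fold limit.

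Upstream of the members, Il6 itself, the main inducer, was at 0 in every male liver, and 2 of the 8 inducing cytokines passed the filter in each sex. Neither Il1a nor Il1b was called in males, and Il1a was lower in female IVF livers (-1.05, adjusted p = 0.0223). The counts that follow stand beside 31.1% of all genes called in males and 39.4% in females. Of the 8 cytokine receptors 4 were higher in male IVF livers, among them Il1rap (1.19, adjusted p = 1.74e-04) and Il6ra (0.97, adjusted p = 0.00123), and Tnfrsf1a was lower (-1.15, adjusted p = 0.00158). In females Tnfrsf1a was higher (1.10, adjusted p = 5.60e-05) and Il1rap lower (-1.26, adjusted p = 4.31e-04). Of the 15 kinases, adaptors and transcription factors, 1 was higher and 4 lower in male IVF livers, and 4 were higher and 1 lower in female ones. Cebpa, which encodes a C/EBP factor, was lower in males (-1.90, adjusted p = 1.19e-04) and higher in females (2.21, adjusted p = 1.33e-05). With the GC trend removed these values were -0.89 (adjusted p = 0.00519) and 1.09 (adjusted p = 3.54e-04). The motif in the printed promoters is that of C/EBP factors as a family, and the part of Cebpa in the member values was not tested. Of 10 genes listed as feedback inhibitors or relatives of them, 9 were tested in each sex. In males 1 was higher, Nfkbiz (1.47), an IkB relative that is not taken as an inhibitor here, and 1 was lower, Pias3 (-1.52). In females 3 were higher, Socs3 (1.07), Nfkbia (0.80) and Pias3 (1.07). Of 12 receptors and enzymes that take up the member proteins or their cargo, 9 were tested in each sex. In males 1 was higher and 4 lower, with Cd163, the haptoglobin-hemoglobin receptor, at 1.31 and Hmox1, which breaks down heme, at -1.16. In females 3 of these 12 were higher, among them Lrp1, the hemopexin receptor (0.94). With the GC trend removed, the receptors had 3 higher and 0 lower in males and 0 and 1 in females, the kinases, adaptors and transcription factors 1 and 2 in both sexes, the inhibitors 0 and 1 in males and 0 in females, and the clearance genes 3 and 2 in males and 1 and 2 in females. Tnfrsf1a was then -0.47 (adjusted p = 0.0742) in males and 0.29 (adjusted p = 0.136) in females, Il1rap 0.65 (adjusted p = 0.00542) and -0.52 (adjusted p = 0.131), and Pias3 -1.07 (adjusted p = 0.0209) and 0.50 (adjusted p = 0.110). In females Socs3 (-0.10), Nfkbia (0.19), Il1a (-0.32) and Lrp1 (0.08) were not called, and in males Nfkbiz (1.37, adjusted p = 0.0639) was not, while Il6ra (1.11), Cd163 (1.11) and Hmox1 (-0.85) were.

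In F2 ovaries 4 members passed the filter on low counts, Saa2, Saa3, Lcn2 and Hp, and 0 were called by edgeR. Of 16502 genes 0% were called, and 10.6% (1757 genes) had an unadjusted p under 0.05. DESeq2, which called 0.638% of the 13797 genes it gave an adjusted p, called 2 members, Saa2 and Saa3. Saa2 was 0.349, 0.791, 0.450 and 1.03 CPM in naturals 1 to 4, from 8 to 19 counts each, and 3.95, 4.15, 11.9, 2.64 and 5.19 CPM in IVF 1 to 5, from 40 to 187 counts each. Every IVF ovary was above every natural, with IVF 3 the highest, and 1.8% of all genes had that order. The log2 fold change was 3.12 (SE 0.52, unadjusted p = 9.0e-05, adjusted p = 0.186 by edgeR and 1.25e-06 by DESeq2). A gene that passes a filter through the group in which it is high has to differ, so no weight is given to the number of members that passed. Saa2 and Saa3 were low in naturals and may have passed in this way. Their p-values and their calls by DESeq2 are therefore given as description only.

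Saa3 was 0.760, 0.544, 2.53 and 0.973 CPM in natural ovaries and 3.00, 2.60, 6.64, 6.87 and 8.47 CPM in IVF ones. IVF 2 was only just above natural 3, and the other IVF ovaries were clear of it. The log2 fold change was 2.22 (SE 0.53, unadjusted p = 0.0015, adjusted p = 0.305 by edgeR and 0.00262 by DESeq2). Leaving out each ovary in turn, Saa2 ran from 2.63 to 3.43 and Saa3 from 2.01 to 2.87. Saa1, which was not tested, had 123 counts in IVF 3, the ovary highest in Saa2, and at most 9 in any other.

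**Figure D5:**
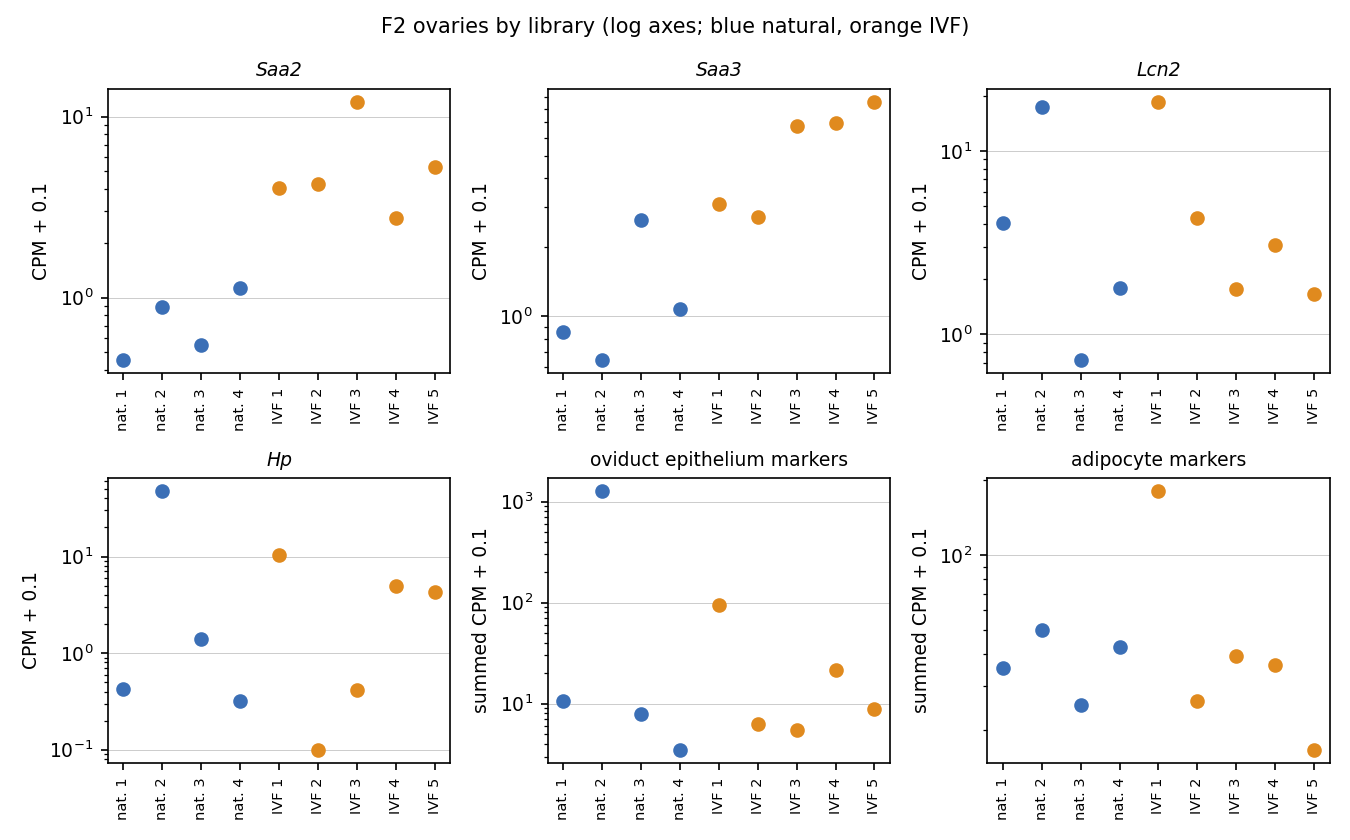
CPM plus 0.1 of Saa2, Saa3, Lcn2 and Hp in each F2 ovary library on log axes that differ between panels, beside the summed CPM of markers of oviduct epithelium and of adipocytes. The IVF ovaries lie above the naturals for Saa2 and Saa3, and natural 2, the highest in Hp, is also the highest in oviduct markers.

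Lcn2 and Hp varied between ovaries without regard to group. Lcn2 was 3.94, 17.4, 0.619 and 1.68 CPM in naturals and 18.47, 4.22, 1.66, 2.97 and 1.56 CPM in IVF (log2 -0.02, SE 1.04, adjusted p = 0.996). Hp was 0.329, 47.4, 1.29 and 0.216 CPM in naturals and 10.4, 0, 0.319, 4.89 and 4.15 CPM in IVF (log2 -1.64, SE 1.65, adjusted p = 0.738). Natural 2 and IVF 1 were high in both. Natural 2 also held 1266 CPM of the 5 oviduct markers, against 3.41 to 10.6 in the other naturals, and IVF 1 held 94.4 and IVF 4 21.5 against 5.36 to 8.73 in the other IVF ovaries. Neutrophil markers summed to 175 CPM in natural 2, of which 172 were Ltf, and to 1.53 to 10.3 elsewhere. Adipocyte markers summed to 180 CPM in IVF 1 and to 16.5 to 50.1 elsewhere, and hepatocyte markers to 23.3 CPM in natural 2, 18.9 in IVF 1 and 2.04 to 7.07 elsewhere. The part of other tissue in the Lcn2 and Hp values was not tested, and without natural 2 the log2 fold change of Hp was 2.76 (adjusted p = 0.695). Orm1, Orm2, Orm3, Hpx and Crp had at most 17 counts in any ovary and were not tested.

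In the testes Lcn2 was the member with a level of note. In F2 testes, where 4 members were tested, 0 were called and 0.914% of all genes were. Lcn2 was 92.8, 96.8, 118, 130.5 and 129.9 CPM in natural F2 males, with 108, 144 and 169.6 CPM as the lowest, median and highest of the 7 IVF values. Of these, 5 were above the highest natural, for a log2 fold change of 0.31 (SE 0.13, unadjusted p = 0.029, adjusted p = 0.287). Rnase10, the 1 epididymis marker of 7 that was tested, was called higher in the same testes (log2 1.03, SE 0.20, adjusted p = 0.00853). The 7 markers summed to 2.82 to 4.57 CPM in naturals and 3.77 to 9.46 CPM in IVF, and their part in the Lcn2 value was not tested. In F1 testes at 12 weeks (2 members tested, 0 called, 0.199% of genes called) Lcn2 was 195, 163, 129, 102 and 122 CPM in naturals and 195, 170.1, 158, 202 and 153 CPM in IVF. The groups overlapped, and the log2 fold change was 0.30 (SE 0.17, adjusted p = 0.511). At 39 weeks (2 tested, 0 called, 0.00996% of genes called) it was 98.4, 101, 124 and 215 CPM in naturals and 116, 163 and 231 CPM as the lowest, median and highest of 6 IVF values (log2 0.36, SE 0.24, adjusted p = 0.638). Each of these adult comparisons had a small positive value that did not pass the test. F2 natural 1 and 2, F2 IVF 3 and 4, and natural 1 and 2 at 39 weeks were near-identical pairs of libraries. The labels number them separately, but the libraries of such a pair may not be independent. Saa1, near 1 CPM, was the other member tested at both F1 adult ages and in F2 testes, with log2 fold changes of 0.32, 0.15 and 0.10. Orm3 and Orm2 were tested in F2 testes alone, at 1.23 CPM or less, with 0.38 (SE 0.42, adjusted p = 0.753) and -0.22 (SE 0.66, adjusted p = 0.923).

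In fetal testes at E18.5 (2 members tested, 0 called, 0.221% of genes called) Lcn2 was far lower than in adults. It was 2.34, 1.63, 2.24 and 0.664 CPM in naturals and 2.10, 20.8, 3.22, 4.01, 2.63 and 2.42 CPM in IVF. IVF 2, with 235 counts, stood alone (log2 1.70, SE 0.83, adjusted p = 0.311, and 0.68 without it). The same library was the highest in the oviduct epithelium markers, with 58.7 CPM against 16.1 to 29.1 in naturals. Hp was 15.9, 2.85, 1.79 and 3.32 CPM in naturals and 0.935, 1.94, 1.23, 2.49, 1.40 and 1.72 CPM in IVF. Natural 1 stood far above the rest, and the log2 fold change was -1.90 (SE 0.53, adjusted p = 0.0783 by edgeR and 0.0126 by DESeq2, which called 1.02% of genes). Natural 1 also held 71.8 CPM of hepatocyte markers, against 15.0 to 28.6 in the other 9 testes, and without it Hp was -0.70 (adjusted p = 0.409). Without natural 3 Hp was called, at -2.21 (adjusted p = 0.0485). Crp had 24 counts in natural 1, 32 in IVF 2 and 0 in the other 8. The part of liver RNA in these values was not tested.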

How the data were processed

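Stranded mRNA libraries of 72 mouse samples were used, grouped by their labels. The authors deposited 7 tables of raw counts per gene symbol, which were used as deposited. The submitters' processing notes name Trimmomatic 0.32, STAR 2.3.0e, featureCounts 1.5.0, DESeq2 and mm10. Of low counts 60.8% to 94.6% per library were even, as when each mate of a pair is counted, so counts overstate independent fragments. In male livers this share was 77.7% to 80.8% in naturals and 83.4% to 94.6% in IVF. In female livers it was 79.7% to 90.3% and 73.0% to 81.5%. Each table was fitted in R 4.3.3 with edgeR 4.0.16 (filter on low counts by group, TMM, robust quasi-likelihood, two-sided), adjusted by Benjamini-Hochberg over all genes tested. Log2 CPM used a prior count of 2. DESeq2 1.42.0, other filters and scalings, a replicate block, removal of the trend with GC content (lowess, span 0.3, GC of GENCODE M21 transcripts), thinning and leaving out libraries were alternatives. The scripts were tested on simulated data. The 10 genes and the pathway and marker lists were chosen with earlier results of these data known. Named list genes were called ones, at most 4 per list and comparison by smallest adjusted p, and genes alike in pattern were the 3 of highest r for members at 10 CPM or more. No set test was run. Level comparisons between genes used the median length of a gene's GENCODE M21 transcripts. DNA methylation data were not analysed here.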

Additional observations from a re-analysis of the deposited data

Results flagged for a closer look

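On the log2 scale, 68 groups of 4 to 7 libraries were checked for a value far from the others, and 7 held one. A limit set at the 95% critical value flags about 1 group in 20 by chance. In F2 male livers these were Lcn2 in natural 1 (7.77 CPM, others 1.59 to 2.00), Lcn2 in IVF 4 (565 CPM, others 1.89 to 4.76) and Crp in IVF 4 (395 CPM, others 279 to 303). In F2 female livers they were Saa1 in IVF 2 (726 CPM, others 46.4 to 76.3) and Saa2 in IVF 2 (581 CPM, others 24.6 to 42.1). In the testes they were Orm3 in F2 IVF 6 (0.0454 CPM, a single count, others 0.386 to 0.672) and Lcn2 in E18.5 IVF 2 (20.8 CPM, others 2.10 to 4.01). Male IVF 4 was also far above the other male livers for Saa1, Saa2 and Orm2, but was not flagged for them on this scale.

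The IVF effect differed between female and male livers by the interaction test for Orm2 (-5.14 on the log2 scale, female minus male), Lcn2 (-4.67), Hpx (1.46) and Crp (-0.79). Without male IVF 2, 3 and 4 the differences of Orm2 (-1.19) and Lcn2 (0.62) were not called, and those of Hpx (2.18) and Crp (-0.65) were. With the GC trend removed from all livers Hpx was 0.82 (adjusted p = 0.233) and Crp turned to 0.52 (adjusted p = 0.0605), and neither was called.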

How the results depend on the processing

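With other settings, 1009 of the single-gene values kept their direction and their side of the threshold, 86 lost a call, 28 gained one and 64 reversed, and 156 of the counts of calls stayed within 1.5 times while 40 moved. For each change the cause was not tested. In F2 male livers the 3 members called became 1 with DESeq2 (which gave no adjusted p for 6 members), 0 with no filter on low counts, 0 with the GC trend removed, 0 with thinned counts and 1 with the GC trend removed and without IVF 4, and 5 without IVF 2 and IVF 3. Leaving out 1 library gave 0 to 4, as named above. DESeq2 called 2 members in ovaries and 1 at E18.5, where leaving out a testis gave 0 to 1. In female livers leaving out 1 library gave 4 to 5 members called, and with the GC trend removed Hp lost its call. Calls of the interaction (4) became 2 with no filter or with the GC trend removed and 2 to 6 leaving out a liver. Calls between naturals (2) became 1 with no filter or with the GC trend removed, 4 without male IVF 2, 3 and 4, and 1 to 4 leaving out a liver.

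Same-numbered natural and IVF libraries of a table did not all deviate together (r from -0.226 to 0.301), so these numbers were not used as pairs. Liver and gonad numbers were not compared. With the replicate block, 0 members were called in male livers, also 0 with the GC trend removed as well, and the interaction called 2. The block reversed male Saa1 (-0.59) and Hp (-0.64), female Orm2 (-0.11), ovary Lcn2 (0.66) and Hp (0.83) and the interaction of Saa3 (0.27) and Saa1 (1.45). The block with the GC trend removed reversed male Saa1 (-0.27) and Crp (-0.22), female Crp (0.30), Orm1 (0.023) and Saa2 (-0.011), ovary Lcn2 (0.63) and Hp (0.77), and F2 testis Saa1 (-0.0047).

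The GC trend removed alone reversed male Crp (-0.19) and Hpx (0.070), female Crp (0.31), the interaction of Crp (0.52) and Hp (-0.59), and Crp (-0.17) and Hp (0.16) between naturals. With it, leaving out male IVF 4 reversed Saa1 (-1.15), Hp (-0.45) and Crp (-0.34), and leaving out female IVF 2 gave Crp 0.33, Lcn2 -0.65, Orm2 -0.57, Saa1 -0.53 and Saa2 -1.10. Male Hpx was 0.23 without IVF 2 and IVF 3, and without IVF 2, 3 and 4 Saa1 was -1.62, Saa2 -0.82 and Hp -0.76 in males, with interactions of 0.62 for Lcn2, 1.16 for Saa3, 2.95 for Saa1 and 2.00 for Saa2.

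Leaving out 1 library moved through 0 in males Saa1 (-1.42 to 3.73), Saa2 (-0.020 to 5.95), Hp (-1.13 to 0.55) and Hpx (-1.13 to 0.0014), in females Saa1 (-0.24 to 1.66), Saa2 (-0.80 to 1.41), Orm2 (-0.72 to 0.26) and Lcn2 (-0.20 to 1.19), in ovaries Hp (-2.42 to 2.76) and Lcn2 (-1.17 to 1.44), in F2 testes Orm2 (-0.49 to 0.0036) and Saa1 (-0.050 to 0.22) and at 39 weeks Saa1 (-0.031 to 0.30). Likewise between naturals Saa3 (-0.40 to 0.22), and in the interaction Lcn2 (-5.61 to 0.63), Orm3 (-1.96 to 0.052), Saa1 (-3.57 to 2.71), Saa2 (-6.32 to 1.15) and Saa3 (-1.75 to 1.32) did so. Depth limits male IVF 2 and IVF 3 most, where Saa3, Orm2, Orm3 and Lcn2 had 0 to 4 counts. Summing near-identical testis libraries, chosen after seeing the data, as were the settings that leave out several libraries, changed no call. These pairs were natural 1 and 2 and IVF 3 and 4 in F2, and natural 1 and 2 at 39 weeks. Between the libraries of such a pair the mean chi-square per gene was 1.39 to 1.78. The medians over all pairs within a group were 4.98 in F2 and 8.78 at 39 weeks.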
